A study of Mus musculus with 12 samples.

Results

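Epidermal cells labelled IFE that had lost the epidermal growth factor receptor gene Egfr were compared with IFE cells that kept it, across all autosomal genes. The comparison uses 4 of the 12 RNA sequencing libraries of a mouse skin series on the receptor and hair shaft differentiation. The controls E341 and E360 carry the genotype EGFR_fl_fl, floxed Egfr alleles with the phenotype given as control, and E358 and E359 carry EGFR_delta_ep, given as a knockout, so there are 2 libraries a side. The Cre driver, the deleted exons, the sort gate, the age of the mice and whether each library is a separate animal are not stated in the labels. Of 25965 genes listed, 24483 are autosomal, and 13982 of these had enough reads to be tested. P-values measure the spread between libraries, which may be technical.

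EGFR is a receptor tyrosine kinase at the surface of keratinocytes. It binds ligands such as amphiregulin, TGF-alpha and epigen, and passes the signal on through RAS and the kinase ERK. In epidermis the pathway is known for keeping basal cells dividing and for holding back differentiation, and its loss in skin is known for inflammation and hair defects. Keratinocytes of the basal layer make Krt5 and Krt14, the layers above make Krt1 and Krt10, and the outermost cells build the cornified envelope from loricrin, filaggrin, LCE and SPRR proteins.

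Reads assigned to genes came to 11.4 to 13.2 M per IFE library. The knockout E358 had reads in 12702 genes, the fewest, while E359 had 13556 and the controls 13887 and 13246. Among genes with at least 5 CPM (reads in a gene relative to 1e+06 reads in all genes) in either knockout, 345 (3.20%) had no read in the other knockout, 242 of them in E358. The same count was 231 (2.12%) between the controls, and the cause was not tested. The labels call the cells inner root sheath, while Krt5, Krt14, Trp63, Krt1 and Krt10 were abundant in all 4 libraries. Of the inner root sheath markers, Krt25 and Krt28 had 0 reads. Krt27 was at most at 3.70 CPM, Krt26 had reads only in E360 (4.78 CPM) and Krt71 only in E358 (6.97 CPM). Krt73 was at 0 CPM in E341, 7.22 in E360, 1.46 in E358 and 23.8 in E359. Tchh ranged from 1.35 to 16.2 CPM and Gata3 from 858 to 1028 CPM. By Xist and 4 Y-linked genes, both controls were male and both knockouts female, so sex and genotype cannot be told apart within IFE. The leukocyte genes Ptprc, Cd3e and Cd207 had 0 reads in all 4 libraries, and 16 of 24 leukocyte markers were at 0. The summed level of 19 fibroblast markers was 938 to 1102 CPM in controls and 1115 to 1560 CPM in knockouts, with Col3a1, Pdgfrb and Twist2 at 0.

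Egfr itself (chromosome 11, 16752203 to 16918158 of mm10, + strand) was all but gone from the knockouts. Its level was 116 and 157 CPM in the controls E341 and E360 and 0 and 0.325 CPM in the knockouts E358 and E359. Values follow this library order throughout, as CPM of reads in genes after TMM scaling. The groups lay far apart, with E358 at 0 reads and E359 at 4. The log2 fold change was -7.72 (SE 0.95) on the log2(CPM + 0.5) scale, which understates changes of low genes, with a limma p of 8.32e-06 that became 0.0805 after Benjamini-Hochberg adjustment over all 14449 tested genes. The threshold of 0.05 was passed with a filter at 50 reads (adjusted limma p of 0.0463), with the 4 IFE libraries alone (0.0393) and in a fit of all 12 libraries (0.0057). It was not passed without a filter (adjusted limma p of 0.141), with a pseudocount of 2 CPM (0.137) or with limma-voom (adjusted limma-voom p of 0.999). The remaining alternatives that kept all IFE libraries did not pass it either.

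A transcript that lies inside the Egfr gene went the other way. The files list it as E230015J15Rik (chromosome 11, 16815431 to 16830702, - strand), and GENCODE names it Egfros, an antisense RNA. Its whole span sits in the first intron of Egfr, between exons 1 and 2 of the 28 exons of transcript Egfr-201, and shares no base with an Egfr exon. Its level was 8.24 and 9.38 CPM in the controls and 200.02 and 93.7 CPM in the knockouts, 16.7-fold higher by the means. Both knockouts were far above both controls, and the log2 fold change was 3.89 (SE 0.52), with an unadjusted limma p of 1.67e-05 and an adjusted p of 0.0805. The gene was singled out after its values were seen. Whether the counting used strand is not stated in the labels, so Egfros reads and reads from unspliced Egfr intron sequence cannot be told apart.

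ORS libraries from the outer root sheath, which carry the same genotype names, held 5.78 and 10.7 CPM of Egfros in the controls E341 and E344 and 60.4 and 60.3 CPM in the knockouts E358 and E359. The ORS control E344 was female by its Xist reads, like both ORS knockouts, and sat with the male control. Egfr in ORS was 272 and 248 CPM in the controls against 3.71 and 55.2 CPM in knockouts, so E359 kept part of its Egfr there while its Egfros level equalled that of E358.

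**Figure D1:**
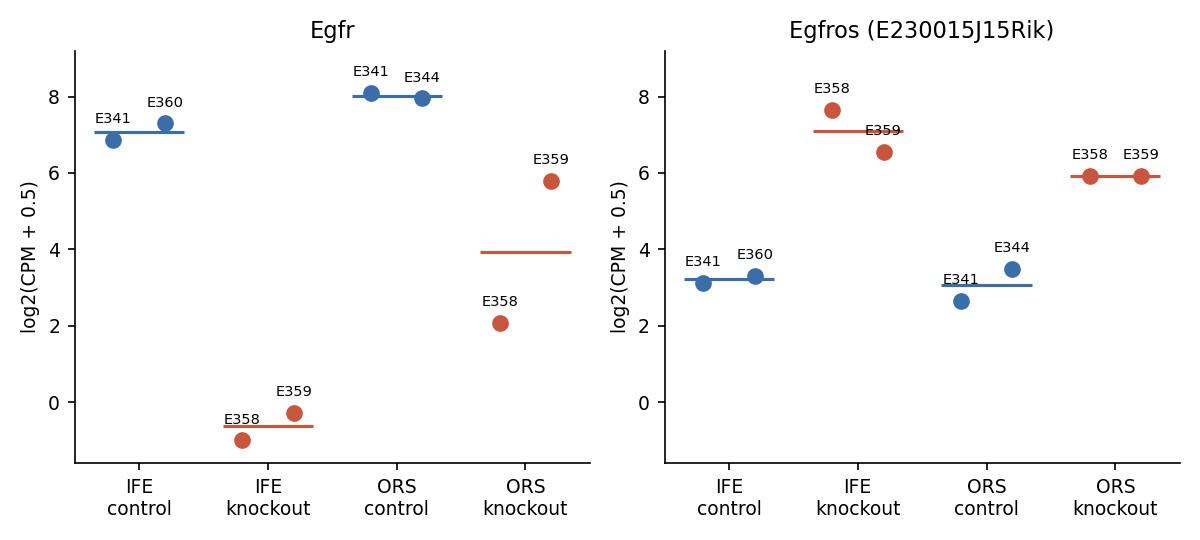
Levels of Egfr and of the antisense transcript Egfros, as log2(CPM + 0.5), in each IFE and ORS library; dots are libraries, bars are group means, and -1 stands for 0 reads. Egfr is near 0 CPM in both IFE knockouts, whereas Egfros is at 200.02 and 93.7 CPM there against 8.24 and 9.38 CPM in the controls.

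The 31 other tested genes within 5 Mb of Egfr include Egfros. Of these 31, 3 had an unadjusted limma p under 0.05, 2 of them higher and 1 lower. The higher genes were Egfros and Lgalsl. Lgalsl is a galectin-like protein listed as 1110067D22Rik (chromosome 11, 20823576 to 20831056), also singled out after its values were seen. It was at 21.9 and 22.7 CPM in the controls against 86.6 and 65.4 CPM in knockouts, with no overlap, and its log2 fold change was 1.73 (SE 0.28). In ORS it was at 250.1 and 215 CPM in the controls against 233 and 232 CPM in knockouts, where the groups overlapped. Over chromosome 11 as a whole, 7.18% of tested genes had an unadjusted limma p under 0.05, within the range of the autosomes, from 5.26% on chromosome 19 to 9.63% on chromosome 10.

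The start of Egfr and the start of Egfros are shown because their levels went in opposite directions. Each line gives the 250 bases before a RefSeq transcript start (GRCm38.p6), 5′ to 3′ on the strand of the gene, with capitals for the AP-1 letters TGANTCA or the TATA letters TATAAA, searched on both strands. The Egfros window (start nearest to the deposited end of the gene) holds AP-1 letters 78 and 50 bases before the start, and the Egfr window holds neither motif. A window of 300 bases with AP-1 letters was found for 5.03% of the 9291 tested autosomal genes with a promoter entry, and one with TATA letters for 7.03%. A match describes letters and does not show a bound factor.
Egfr (chr11:16751953-16752202, + strand): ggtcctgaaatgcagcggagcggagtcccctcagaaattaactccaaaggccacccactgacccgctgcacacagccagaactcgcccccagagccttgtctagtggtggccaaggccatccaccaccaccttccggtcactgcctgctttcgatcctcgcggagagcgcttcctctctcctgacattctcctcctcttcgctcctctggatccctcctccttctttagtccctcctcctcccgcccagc
Egfros (chr11:16830679-16830928, - strand): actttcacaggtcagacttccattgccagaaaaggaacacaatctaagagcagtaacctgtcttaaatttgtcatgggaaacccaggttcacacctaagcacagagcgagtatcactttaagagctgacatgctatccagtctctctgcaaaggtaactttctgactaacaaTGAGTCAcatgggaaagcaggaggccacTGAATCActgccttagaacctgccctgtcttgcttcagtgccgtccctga

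Across the transcriptome, 0 of 13982 tested autosomal genes (0%) passed an adjusted limma p under 0.05. Without adjustment, 453 genes (3.24%) were higher and 598 (4.28%) lower at p under 0.05, and limma-voom called 0 genes after adjustment. Both knockout libraries lay above both controls for 2012 genes (14.4%) and below both for 2266 (16.2%). Shares over all tested genes are repeated beside each list, since a list near them is not set apart. Among these separated genes, 739 differed at least 2-fold upward and 1019 downward, and at 8-fold the counts were 59 and 122. The median log2 fold change over all tested genes was -0.01. The fit of all 12 libraries called 23 of 14757 genes (0.156%), 7 higher and 16 lower. Matched genes with a lower level at unadjusted p under 0.05 had a median transcript length of 3558 bases and 48.2% GC, against 2944 bases and 50.4% GC for all matched genes.

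Some genes had reads in both libraries of 1 genotype and none in the other. With at least 5 CPM in both libraries of a group and 0 reads in both of the other, 13 of 13982 tested genes were found in the knockouts and 6 in the controls. Within a genotype, 231 genes at 5 CPM or more in 1 control had no read in the other, and 345 did so between the knockouts. The genes were picked by these values, so absence by genotype was not tested. The 6 controls-only genes, named after their values were seen, were Serpinb3a, Serpinb3b, Sema3a, Syt13, Camk4 and Kprp. Kprp is a keratinocyte proline-rich protein, Sema3a a secreted guidance cue and Camk4 a calmodulin-dependent kinase. Among the 13 knockout-only genes were Kcne4, Wnt9b, Gnat2, Mmp11, P2ry14, Prox1 and Ddit4l.

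Among separated genes with a mean of at least 10 CPM in the higher group, the 15 lower and 15 higher genes with the smallest unadjusted p were taken, predicted gene models apart. The lower genes start with Egfr. Spink5 makes the inhibitor LEKTI, which restrains epidermal kallikreins. It was at 13.8 and 38.6 CPM in the controls against 0 and 0.163 CPM in knockouts, and its log2 fold change was -5.36 (SE 0.90). Muc15, a membrane mucin, was at 23.5 and 25.5 CPM in the controls against 1.38 and 0.569 CPM in knockouts, 25.2-fold lower by the means. For both genes the lowest control was well above the highest knockout.

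The serpin protease inhibitors Serpinb3a and Serpinb3b, neighbours on chromosome 1, had no read in either knockout. Control levels were 13.04 and 8.21 CPM for Serpinb3a and 13.4 and 9.11 CPM for Serpinb3b. Against a floor of 3 reads per library they were at least 43.6-fold and 46.2-fold lower. They are near-identical copies, and reads may be split between them, which leaves each single value uncertain. Their promoters are printed since both genes had no read in the knockouts. In 300-base windows, 257 of 276 aligned bases were identical, with 48 gap positions, or 79.3% identity with gaps counted as differences. Each holds TATA letters, 65 and 41 bases before the start. The Serpinb3b start used lies inside the deposited span of the gene (107153940 to 107278361, - strand), not at its end.
Serpinb3a (chr1:107052304-107052553, - strand): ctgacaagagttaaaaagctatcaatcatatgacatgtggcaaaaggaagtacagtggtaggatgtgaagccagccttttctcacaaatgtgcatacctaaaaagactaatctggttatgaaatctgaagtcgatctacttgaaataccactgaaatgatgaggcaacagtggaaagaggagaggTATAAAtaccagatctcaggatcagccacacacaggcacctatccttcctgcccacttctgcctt
Serpinb3b (chr1:107161115-107161364, - strand): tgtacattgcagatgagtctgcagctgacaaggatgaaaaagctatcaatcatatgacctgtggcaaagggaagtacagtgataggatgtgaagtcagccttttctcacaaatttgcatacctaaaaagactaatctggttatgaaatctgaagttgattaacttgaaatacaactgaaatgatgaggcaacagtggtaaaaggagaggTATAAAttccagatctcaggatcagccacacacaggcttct

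Among the 15 lower genes were also Wwp1, Rnf217 and Kbtbd7, described together after their values were seen. Wwp1, a HECT ligase, was at 30.2 and 29.4 CPM in the controls against 3.16 and 5.77 CPM in knockouts. Rnf217, of the RING type, was at 28.2 and 38.3 CPM against 2.59 and 1.46 CPM, and Kbtbd7, an adaptor of cullin ligases, at 9.67 and 21.3 CPM against 0.567 and 0 CPM. All 3 were separated, with log2 fold changes of -2.66 (SE 0.46), -3.76 (SE 0.64) and -4.35 (SE 0.79).

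Dkk3, a secreted protein of the Dickkopf family, was at 18.001 and 31.03 CPM in the controls against 0.81 and 3.82 CPM in knockouts, with a log2 fold change of -3.34 (SE 0.55). Zfpm2, a cofactor of GATA factors, was at 8.66 and 23.996 CPM in the controls against 0.243 and 0 CPM in knockouts. Syt13, of the synaptotagmin family, was at 5.47 and 14.6 CPM in controls and without a read in the knockouts, a difference of at least 41.2-fold. Each of these 3 genes kept its groups apart, and E360 was the higher control each time.

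Genes of metabolism, organelles and the nucleus were also among the lower genes. Hibadh, an enzyme of valine breakdown, was at 40.5 and 68.4 CPM in the controls against 5.51 and 11.96 CPM in knockouts. Dnajc10, a chaperone of the endoplasmic reticulum, was at 91.02 and 54.2 CPM in the controls against 26.2 and 20.01 CPM in knockouts. Neat1, the long RNA that scaffolds paraspeckles, was at 384 and 382 CPM in the controls against 150.3 and 198 CPM in knockouts, a log2 fold change of -1.15 (SE 0.23). Its controls were nearly equal and both knockouts were lower, the smallest log2 fold change of the 15.

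Steap4, a metalloreductase that handles iron and copper (chromosome 5, 7960472 to 7982213), belonged to the list of metal handling genes and shared the lowest adjusted p with Egfr and Egfros. It was at 7.15 and 8.39 CPM in the controls against 0 and 0.163 CPM in knockouts, with 0 reads in E358 and 2 in E359. The log2 fold change was -3.84 (SE 0.51), with an adjusted limma p of 0.0805, which was 0.00518 with all 12 libraries and 0.966 with the 4 IFE libraries alone. In ORS it was at 337 and 360.3 CPM in the controls against 227 and 499.6 CPM in knockouts, with overlap.

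Among the 15 higher genes, 6 had no read in either control. Wnt9b, a WNT ligand, was at 10.3 and 10.3 CPM in the knockouts, at least 39.4-fold higher than the floor of 3 reads per library. Kcne4, a regulatory subunit of potassium channels, was at 8.99 and 19.4 CPM (at least 54.4-fold). Mmp11, a secreted metalloproteinase, reached 15.9 and 6.34 CPM, and P2ry14, a receptor for UDP sugars, 17.98 and 5.53 CPM. Gnat2, the transducin subunit of cones, reached 14.99 and 6.67 CPM, and B3galt4, a galactosyltransferase of gangliosides, 10.8 and 11.1 CPM. Every knockout value of these 6 genes was above 5 CPM.

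The other 9 higher genes had reads in the controls. Enc1, a kelch protein that binds actin, was at 0.505 and 0 CPM in the controls against 13.9 and 8.62 CPM in knockouts, with a log2 fold change of 4.01 (SE 0.70). Lmcd1, a LIM domain protein, was at 0 and 3.07 CPM against 34.03 and 19.3 CPM, and Stxbp6, which binds SNARE proteins, at 0.168 and 0.18 CPM against 17.9 and 5.69 CPM. Dixdc1, a DIX domain protein of the WNT pathway, was at 3.11 and 2.26 CPM in the controls against 10.8 and 28.4 CPM in knockouts. In these 4 genes the controls were all at or below 3.11 CPM.

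Vesicle and Golgi genes were among them as well. Vps33a, a subunit of endosomal tethering complexes, was at 11.1 and 19.7 CPM in the controls against 62.1 and 78.98 CPM in knockouts. Golga2, a Golgi matrix protein, was at 19.01 and 16.4 CPM against 65.1 and 52.8 CPM, a log2 fold change of 1.70 (SE 0.38). Nek6, a mitotic kinase, was at 4.29 and 1.26 CPM in the controls against 15.2 and 21.8 CPM in knockouts. Rmnd5b, of a ubiquitin ligase complex, was at 19.2 and 8.21 CPM against 72.2 and 54.7 CPM, and D10Wsu102e at 18.1 and 4.87 CPM against 64.5 and 48.1 CPM. The knockouts were at least 3 times the highest control for Nek6 and Vps33a, and all 5 genes kept their groups apart.

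**Figure D2:**
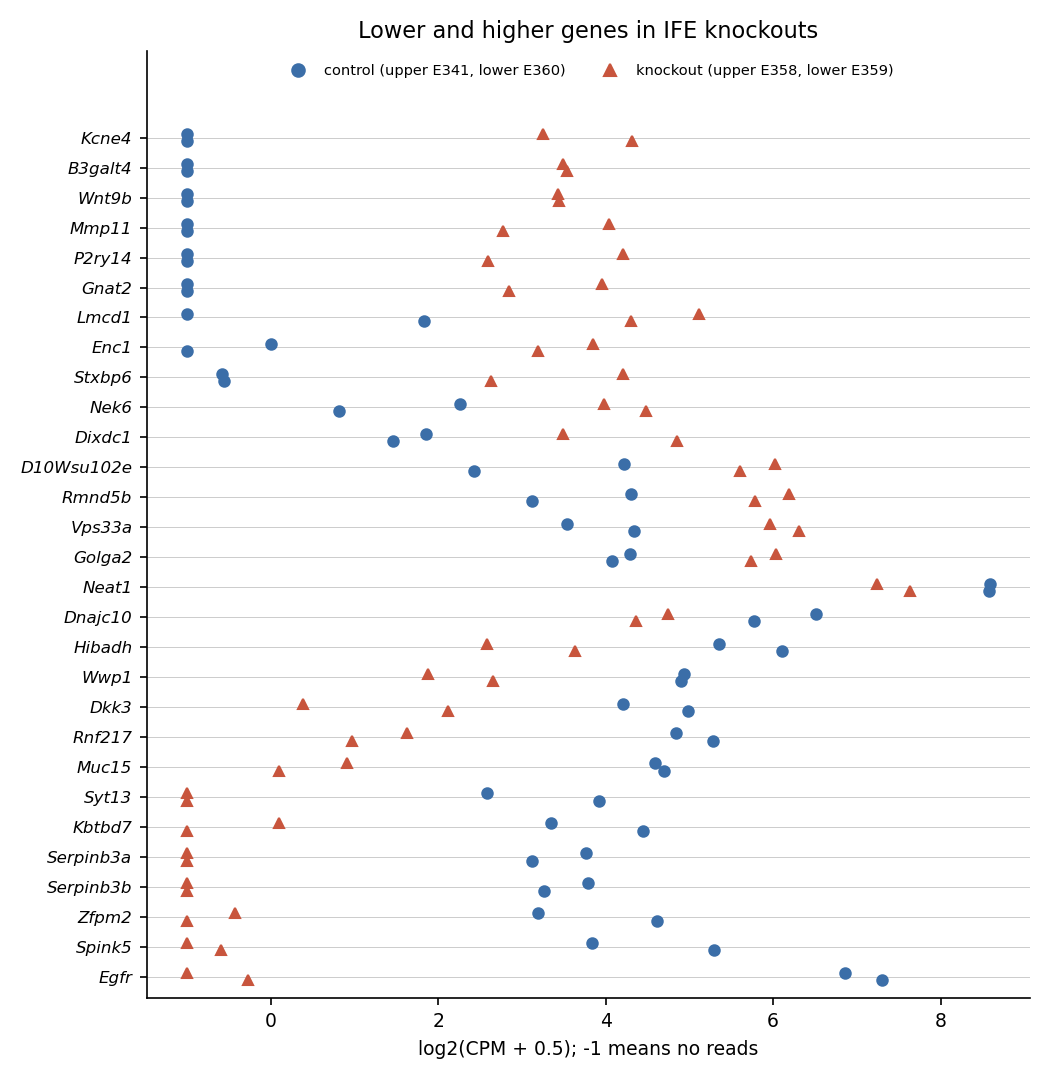
The lower genes described (14) and the 15 higher genes, 1 row each, with the level in each IFE library as log2(CPM + 0.5); circles are controls, triangles knockouts, and -1 stands for 0 reads. Of the 15 higher genes, 6 have both controls at 0 reads, and of the lower genes, 3 have both knockouts at 0 reads.

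The receptor's family and adaptors showed few differences besides Egfr. Of 25 tested autosomal genes in this list (30 listed), 5 were lower and 4 higher with separated groups (16.2% and 14.4% over all tested genes), near the background, and 2 were lower at unadjusted p under 0.05 (4.28% over all). The second was Cbl, the ubiquitin ligase that sends activated EGFR to degradation, at 40.6 and 56.5 CPM in the controls against 4.05 and 12.9 CPM in knockouts (log2 fold change -2.63, SE 0.83, unadjusted limma p of 0.00972). Nrg4, a neuregulin ligand, was at 19.9 and 23.3 CPM against 7.86 and 12.9 CPM, and the adaptor Shc1 at 64.4 and 108 CPM against 63.2 and 46.1 CPM, both separated and lower but with unadjusted p above 0.1. Erbb3, the partner receptor without strong kinase activity, overlapped at 118 and 151 CPM in the controls against 123 and 186 CPM in knockouts. Adam10, a sheddase of ligands, was at 171 and 191 CPM against 229 and 198 CPM. The list's median log2 fold change was -0.13, and -0.35 without E359.

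Genes that report ERK activity were fitted lower for 16 and higher for 7, against 7458 and 6516 over all tested genes. Of 23 tested feedback and target genes, 2 were lower and 1 higher with separated groups (16.2% and 14.4% over all tested genes). The median was -0.17, and -0.03 without E360. Rasa2, which switches RAS off, was at 47.02 and 61.97 CPM in the controls against 4.70 and 23.8 CPM in knockouts (log2 fold change -2.28, SE 0.69). Spry1, an inhibitor of the same route, was at 1.60 and 0.0902 CPM in the controls against 10.5 and 2.93 CPM in knockouts (log2 fold change 2.47, SE 1.05). Errfi1, which binds and inhibits EGFR, was at 57.6 and 11.6 CPM in the controls against 6.72 and 14.9 CPM in knockouts, and the cell cycle target Ccnd1 at 132 and 194 CPM against 164 and 179 CPM. Both overlapped between the groups.

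Of 24 tested immediate-early and AP-1 factors, 6 were separated and lower and 0 separated and higher (16.2% and 14.4% over all tested genes), and 0 had an unadjusted limma p under 0.05. Jun was at 105 and 91.4 CPM in the controls against 57.8 and 65.2 CPM in knockouts, and Fosl2 at 716 and 589 CPM against 585 and 433 CPM. Egr3, at 1.09 and 3.97 CPM in the controls against 0 and 0.0813 CPM in knockouts, and Klf2, at 2.44 and 3.43 CPM against 0 and 1.55 CPM, were low throughout. The median was -0.40, -0.08 without the control E341 and -0.03 without the knockout E358.

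Basal layer genes were close between genotypes. Of 25 tested genes of the basal keratins, integrins and hemidesmosomes, 3 were higher and 4 lower with separated groups, near the 14.4% and 16.2% of all tested genes, and 0 had an unadjusted limma p under 0.05. Krt14 was at 10248 and 8284 CPM in the controls against 11433 and 9263 CPM in knockouts, and Krt5 at 9513 and 7759 CPM against 10612 and 8855 CPM, both overlapping. Krt15, a basal keratin also of the bulge, was at 5924 and 5064 CPM against 4867 and 4313 CPM, separated by a small margin (log2 fold change -0.26, SE 0.12). Bcam, a laminin receptor, was at 177 and 254 CPM in the controls against 258 and 347 CPM in knockouts, and Col17a1, the hemidesmosomal collagen, at 854 and 959 CPM against 1109.6 and 1001 CPM.

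Of 27 tested suprabasal genes, 10 were separated and lower and 1 was separated and higher (16.2% and 14.4% over all tested genes). At unadjusted p under 0.05, 6 were lower and 0 higher (4.28% and 3.24% over all tested genes), and the median was -0.44. It was -0.16 without the control E341 and -0.89 without the control E360. Fewer cells of a type and less RNA per cell cannot be told apart in bulk libraries. The desmosomal cadherin Dsc1 was at 19.9 and 1.89 CPM in the controls against 0 and 0.244 CPM in knockouts, and Cebpa, a factor of keratinocyte differentiation, at 47.8 and 37.1 CPM against 9.24 and 20.6 CPM. The gasdermin Gsdma was at 1.51 and 4.06 CPM in controls with 0 reads in knockouts. Skint3 was at 3.45 and 1.35 CPM against 0 and 0.325 CPM. Skint3 passed the read filter through the controls alone and could only be lower, so the count of lower members is partly set by the filter. The remaining pair, named after their values were seen, was Skint6, at 5.30 and 1.44 CPM against 0 and 0.813 CPM, and the crosslinking enzyme Tgm1, at 0.841 and 1.44 CPM in controls with 0 reads in knockouts. Both lay near the limit of these libraries. The most abundant members differed little. Krtdap was at 5037 and 5119 CPM in the controls against 5141 and 4462 CPM in knockouts, and Dmkn, a secreted protein of upper layers, at 4688 and 4170.3 CPM against 3637 and 3648 CPM.

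The cornified envelope list showed the lowest median of the 30 lists, -2.65, and its size depended on the control E341. Of 25 tested members (45 listed autosomal), 14 were separated and lower, 0 separated and higher, and 4 had an unadjusted limma p under 0.05, against 16.2% separated and lower over all tested genes. The mean log2(CPM + 0.5) of the list was 4.78 in E341, 1.77 in E360, 0.96 in E358 and 0.74 in E359. Members below the read filter were not tested, and a member that passed it through 1 group alone had to differ between groups. In 20 of the 25 genes E341 was at least 3 times as high as E360. The list's median was -1.18 without E341 and -3.97 without E360. So 1 control stood apart, and the other lay nearer to the knockouts.

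The 4 genes with an unadjusted p under 0.05 make late envelope proteins. Lce1a1 was at 112 and 9.83 CPM in the controls against 0.972 and 0.813 CPM in knockouts, Lce1h at 49.6 and 7.85 CPM against 0 and 0.0813 CPM, and Lce1g at 86.7 and 4.33 CPM against 0 and 1.87 CPM. Sprr2a3, a small proline-rich precursor, was at 13.8 and 6.50 CPM in the controls against 0.081 and 2.11 CPM in knockouts (log2 fold change -3.02, SE 0.97), with the controls closest together of the 4. The LCE1 and SPRR2 families hold near-identical copies that can share reads. Asprv1, the protease that trims filaggrin, overlapped at 222 and 114 CPM against 121 and 198 CPM. Flg2, a filaggrin relative named after its values were seen, was at 10.2 and 2.17 CPM in controls with 0 reads in knockouts, and its unadjusted limma p was 0.051.

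Most of these genes share the epidermal differentiation complex on chromosome 3, here taken as 92080275 to 93471980. Of 61 genes listed there, 30 were tested, 15 were separated and lower and 0 separated and higher (16.2% and 14.4% over all tested genes), and the median was -2.62. In 27 of the 30 the control E341 was at least 3 times as high as E360. The kallikrein cluster on chromosome 7 (43690418 to 43851181) served as a second dense skin locus, with 8 tested genes, 2 lower and 1 higher with separated groups and a median of -0.03. AP-1 letters were found in 5 of 24 cornified envelope promoters (20.8%) and TATA letters in 7 (29.2%), against 5.03% and 7.03% of tested genes. Over all 25748 promoters the shares were 7.99% and 14.2%. They were 17.6% and 29.4% for 17 suprabasal promoters, 9.09% and 36.4% for 11 stress promoters, and 0% and 0% for 15 of cholesterol synthesis. The letters are therefore not particular to the cornified envelope list. The 300-base windows of Lce1a1, Lce1h, Lce1g and Sprr2a3 held neither motif. The Sprr2a3 window ends at 92285353, before the deposited start of the gene at 92288566, so it may not be the promoter of the counted span. Among the 5 with AP-1 letters is Flg2, whose window is printed as the example, with the letters 69 bases before the start.
Flg2 (chr3:93197023-93197272, + strand): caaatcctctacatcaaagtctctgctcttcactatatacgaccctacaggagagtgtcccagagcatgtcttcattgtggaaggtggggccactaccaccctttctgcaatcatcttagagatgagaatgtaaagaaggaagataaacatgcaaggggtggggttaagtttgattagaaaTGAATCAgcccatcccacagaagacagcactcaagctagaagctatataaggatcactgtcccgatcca

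**Figure D3:**
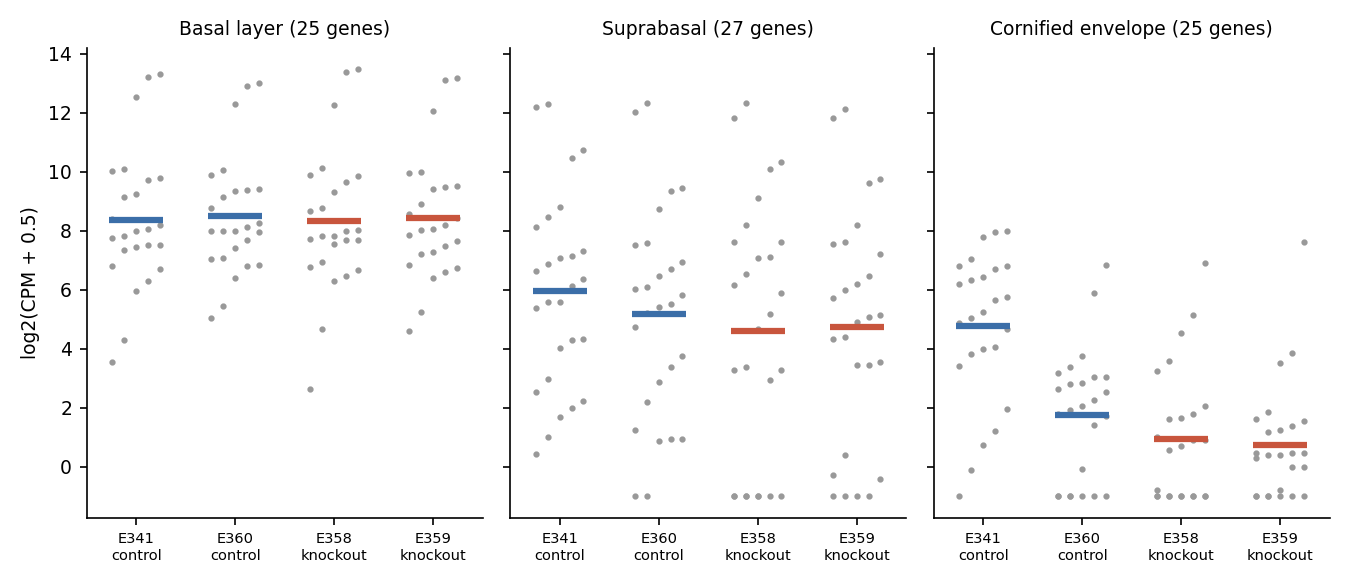
Levels of the tested basal, suprabasal and cornified envelope genes in each IFE library, as log2(CPM + 0.5); grey dots are genes, the bar is their mean, blue for controls and red for knockouts. Basal genes hold their level in all 4 libraries, and the cornified envelope mean is 4.78 in E341 against 1.77, 0.96 and 0.74 in the other libraries.

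Of 26 tested lipid barrier genes, 5 were separated and higher and 4 separated and lower (14.4% and 16.2% over all tested genes), near the background. Abca12, which loads lipids into lamellar granules, was at 5.80 and 4.42 CPM in controls with 0 reads in knockouts (log2 fold change -3.48, SE 0.96). Slc27a4, a fatty acid transporter needed for the barrier, was at 14.3 and 11.5 CPM in the controls against 51.8 and 33.6 CPM in knockouts, and the acid sphingomyelinase Smpd1 at 14.2 and 13.6 CPM against 56.5 and 29.2 CPM. Aloxe3, an epidermal lipoxygenase, was at 0.505 and 2.35 CPM against 8.43 and 7.89 CPM. These 3 were higher with log2 fold changes of 1.67 (SE 0.52), 1.51 (SE 0.52) and 2.36 (SE 1.06).

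Among kallikreins and their regulators, 5 of 19 tested genes were separated and lower and 2 separated and higher (16.2% and 14.4% over all tested genes). Besides Spink5, the channel-activating protease Prss8 was lower at 21.3 and 22.2 CPM in the controls against 1.54 and 15.6 CPM in knockouts, with E359 nearer to the controls. Klk9 was at 7.49 and 4.24 CPM against 0.243 and 1.95 CPM, and Klk7, a protease of corneocyte shedding, at 32.6 and 10.5 CPM in the controls against 0.081 and 15.5 CPM in knockouts, with overlap. The cathepsin Ctsb was at 408 and 383 CPM in the controls against 422 and 492 CPM in knockouts.

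Stress and hyperproliferation genes split by gene. Of 17 tested, 7 were separated and lower (16.2% over all tested genes), all 7 with unadjusted p under 0.05 (4.28% over all). Krt17 was the 1 separated and higher member (14.4% over all). Serpinb3a, Serpinb3b and Krt6b passed the read filter through the IFE controls alone and could only be lower. The count of lower members is thus partly set by the filter. Krt17, a keratin of stressed epidermis and of the follicle, was at 1996 and 3166 CPM in the controls against 3676 and 4987 CPM in knockouts (log2 fold change 0.77, SE 0.21). Krt6b was at 4.46 and 10.4 CPM in the controls against 0.162 and 0.488 CPM in knockouts. The remaining lower members, named after their values were seen, were Krt6a, S100a9, Il1f9 and Gjb2. Krt6a was at 44.1 and 16.96 CPM against 1.78 and 8.38 CPM, and Il1f9, a cytokine of the interleukin 1 family, at 31.8 and 16.8 CPM against 5.43 and 3.99 CPM. S100a9, a calprotectin subunit, was at 1.43 and 3.07 CPM in controls with 0 reads in knockouts. Beside Krt17 the most abundant member was the stefin-like BC100530, at 4471 and 3464 CPM in the controls against 4389.97 and 3032 CPM in knockouts, and Ccnd2 was at 1604 and 2247 CPM against 1646 and 2493 CPM, both with overlap. The list's median was -0.22, -0.38 without E360 and -0.99 without E358.

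Junction genes were led by Perp, a desmosomal membrane protein and p53 target, at 1445 and 1895 CPM in the controls against 3471 and 2708 CPM in knockouts (log2 fold change 0.89, SE 0.24). The connexin Gjb2 was at 31.04 and 9.29 CPM in the controls against 7.70 and 0 CPM in knockouts. Of 29 tested junction genes, 9 were separated and lower and 4 separated and higher (16.2% and 14.4% over all tested genes). The median was -0.10, from -0.23 without E360 to -0.01 without E341. Gja1, the main connexin of keratinocytes, overlapped at 2828 and 1882 CPM in the controls against 2451 and 1899 CPM in knockouts.

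Of 35 tested p53 targets, 10 were separated and higher and 4 separated and lower (14.4% and 16.2% over all tested genes). At unadjusted p under 0.05, 5 were higher and 1 lower (3.24% and 4.28% over all tested genes). Ddit4l restrains mTOR signalling. Its knockout levels were 5.83 and 6.67 CPM and both controls were without a read, a difference of at least 23.9-fold. Rrm2b, the p53-inducible ribonucleotide reductase subunit, was at 7.32 and 3.25 CPM in the controls against 55.1 and 20.01 CPM in knockouts, and Mdm4, an inhibitor of p53, at 34.1 and 29.4 CPM against 119 and 70.6 CPM. Sesn2, a sestrin named after its values were seen, was at 2.94 and 2.07 CPM against 19.04 and 19.1 CPM. Apaf1, the scaffold of the apoptosome, was the lower gene, at 17.3 and 31.1 CPM against 1.78 and 5.77 CPM (log2 fold change -2.65, SE 0.77), and was also named after its values were seen. The list's median, 0.21, was 0.12 without E359 and turned to -0.03 without E341 and without E358.

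Of 45 tested replication genes, 11 were separated and higher and 4 separated and lower (14.4% and 16.2% over all tested genes). The median was 0.12, and ran from 0.03 without E341 to 0.33 without E358. Mcm2, a subunit of the replicative helicase, was at 36.9 and 40.2 CPM in the controls against 61.98 and 115 CPM in knockouts, and Mcm4 at 153 and 161 CPM against 257 and 213 CPM. Cdc45, a helicase partner, was at 24.6 and 1.98 CPM in the controls against 44.2 and 53.8 CPM in knockouts, with control E360 far below E341. Mcm10, an initiation factor, was lower at 22.7 and 10.6 CPM in the controls against 1.46 and 3.99 CPM in knockouts (log2 fold change -2.43, SE 0.69).

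Of 39 mitotic genes, 10 were separated and higher and 4 separated and lower (14.4% and 16.2% over all tested genes). The kinetochore motor Cenpe was at 163 and 265 CPM in the controls against 73.3 and 136.3 CPM in knockouts, the kinetochore protein Nuf2 at 64.4 and 56.02 CPM against 27.1 and 34.4 CPM, and Plk4, the kinase of centriole copying, at 39.1 and 73.9 CPM against 15.7 and 31.8 CPM. These 3 were lower, while Nusap1, a spindle protein, was higher at 177 and 195 CPM in the controls against 285 and 278 CPM in knockouts (log2 fold change 0.60, SE 0.19). Bub1, a checkpoint kinase named after its values were seen, was also higher, at 49.4 and 20.3 CPM against 92.3 and 50.7 CPM. Mki67, the proliferation marker, was at 391 and 597 CPM in the controls against 329 and 445 CPM in knockouts, and Top2a at 381 and 619 CPM against 456 and 551 CPM. Of 18 cyclins, kinase inhibitors and pocket proteins, 0 had an unadjusted limma p under 0.05. The pocket protein genes were separated and lower, with Rb1 at 54.3 and 65.04 CPM in the controls against 19.4 and 44.7 CPM in knockouts and Rbl2 at 41.1 and 43.6 CPM against 13.9 and 28.1 CPM.

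Cholesterol synthesis genes had 6 of 23 tested members separated and higher and 1 separated and lower (14.4% and 16.2% over all tested genes). The median was 0.42, and ran from 0.07 without E360 to 0.79 without E341. Fdft1, squalene synthase, was at 68.6 and 83.1 CPM in the controls against 168 and 133 CPM in knockouts. Insig1, which restrains the pathway, was at 10.5 and 10.4 CPM against 27.9 and 24.6 CPM, and the groups were separated for both genes. The log2 fold changes were 0.98 (SE 0.28) and 1.29 (SE 0.49). In ORS the knockouts overlapped the controls for Fdft1 and lay below them for Insig1, with log2 fold changes of -0.10 (SE 0.28) and -0.54 (SE 0.49).

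Glycolysis had 6 of 19 members separated and higher and 2 separated and lower (14.4% and 16.2% over all tested genes). Pkm, pyruvate kinase, was at 381 and 333 CPM in the controls against 655 and 556 CPM in knockouts (log2 fold change 0.76, SE 0.19), and Aldoc, a minor aldolase, at 5.64 and 0.812 CPM against 18.8 and 9.19 CPM. The median, 0.15, was 0.32 without E341 and turned to -0.06 without E359 and -0.11 without E360. Among 30 genes of oxidative stress and metals, Slc39a1, a zinc importer, was at 193 and 203 CPM in the controls against 325 and 263 CPM in knockouts, in the direction opposite to Steap4. Of 20 heat shock genes, 4 were separated and higher and 2 separated and lower (14.4% and 16.2% over all tested genes), and 0 had an unadjusted limma p under 0.05.

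Antigen presentation genes had 6 of 17 members separated and higher and 0 separated and lower (14.4% and 16.2% over all tested genes). The median was 0.41, and 0.25 without E360. The class I genes H2-T22, at 11.1 and 4.69 CPM in the controls against 23.7 and 30.5 CPM in knockouts, and H2-D1, at 95.6 and 74.97 CPM against 126 and 127 CPM, were among them, as was the peptide transporter Tap1 at 8.08 and 10.8 CPM against 18.5 and 20.7 CPM. H2-T22 had the 1 unadjusted limma p under 0.05 (0.0102). Class I genes have near-identical relatives, so their separate values are uncertain. Interferon-stimulated genes showed no shared direction, with 6 of 27 separated and higher and 2 separated and lower (14.4% and 16.2% over all tested genes). Ifi44 was at 10.7 and 0.902 CPM in controls with 0 reads in knockouts, and Gbp2 at 0 and 9.38 CPM in the controls against 11.8 and 11.3 CPM in knockouts.

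Keratinocyte cytokines were mostly near the limit of these libraries. Of 18 tested (32 listed autosomal), 4 were separated and lower and 1 separated and higher (16.2% and 14.4% over all tested genes). The median was -0.36, and -0.23 without E359. Il18, an inflammasome cytokine, was at 6.81 and 4.87 CPM in the controls against 0 and 0.407 CPM in knockouts, while Cxcl10, a chemokine for T cells, was at 6.81 and 20.9 CPM against 33.6 and 30.5 CPM with an unadjusted limma p of 0.164. Ccl27a, the skin-homing chemokine, was at 565 and 919.9 CPM in the controls against 489.9 and 572 CPM in knockouts, with overlap.

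Of 36 WNT, BMP and Notch genes, 7 were separated and higher and 7 separated and lower (14.4% and 16.2% over all tested genes), near the background. Fzd3, a WNT receptor, was at 17.7 and 23.6 CPM in the controls against 1.78 and 4.88 CPM in knockouts (log2 fold change -2.58, SE 0.73). Bmp7 was at 63.5 and 59.9 CPM in the controls against 90.2 and 124 CPM in knockouts, and Smad7, an inhibitor of BMP and TGF-beta signals, at 3.45 and 3.88 CPM against 10.5 and 17.2 CPM. Notch1 was at 413 and 315 CPM in the controls against 387 and 303 CPM in knockouts, and Wnt4 at 448 and 412 CPM against 596 and 400.1 CPM.

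Hair follicle lists differed in single genes. Krt79, a keratin of the infundibulum, was at 17.3 and 50.4 CPM in the controls against 6.64 and 5.37 CPM in knockouts (log2 fold change -2.22, SE 0.48), and was also lower in ORS, at 206 and 229.7 CPM in the controls against 105 and 111 CPM in knockouts. In the outer root sheath and bulge list, 5 of 26 tested genes were separated and higher and 3 separated and lower (14.4% and 16.2% over all tested genes). Fitted changes were higher for 13 genes and lower for 13, with a median of 0.06. Dkk3 and Krt15 were among the separated and lower members, with log2 fold changes of -3.34 (SE 0.55) and -0.26 (SE 0.12). Lhx2, a bulge factor, was at 3.87 and 1.35 CPM in the controls against 6.08 and 6.34 CPM in knockouts, Sox9 at 171 and 256 CPM against 401 and 267 CPM, and Lgr5 at 0.324 and 4.15 CPM in the knockouts with no read in either control. Lhx2 in ORS was at 231 and 264 CPM in the controls against 322 and 244 CPM in knockouts. The part of follicle cells in the IFE differences was not tested.

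Hair matrix and inner root sheath genes, which the labels would place here, had 4 of 19 tested members separated and higher and 2 separated and lower (14.4% and 16.2% over all tested genes), and 0 with an unadjusted limma p under 0.05. Msx2, a hair matrix factor, was at 1.85 and 2.53 CPM in the controls against 6.89 and 11.9 CPM in knockouts, and Gata3 at 858 and 922 CPM against 1001 and 1028 CPM. Of 19 tested sebaceous genes, 1 was separated and higher and 4 separated and lower (14.4% and 16.2% over all tested genes). Fitted changes were higher for 5 and lower for 14, and the median was -0.41, and 0 without E360. Far1, which makes fatty alcohols, was higher at 116 and 112 CPM in the controls against 194 and 234 CPM in knockouts, and the glutathione transferase gene Mgst1 lower at 59.1 and 43.7 CPM against 29.4 and 25.9 CPM.

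Among markers of other cell types, 8 of the 12 tested fibroblast genes were fitted higher and 4 lower. Of the 12, 2 were separated and higher and 0 separated and lower (14.4% and 16.2% over all tested genes). The 2 were Fbln1, at 45.6 and 56.5 CPM in the controls against 99.6 and 111 CPM in knockouts, and Dcn, the proteoglycan decorin, at 185 and 129 CPM against 286 and 216 CPM. Pdgfra, fitted lower, had reads in E360 alone (7.40 CPM). The part of fibroblast genes in the other differences was not tested. Of 6 tested leukocyte markers, 5 were fitted higher and 1 lower, with a median of 0.53 that changed sign without E360 (-0.40). The lower one was Cd74, the invariant chain of antigen-presenting cells, at 1.93 and 8.12 CPM in the controls against 0.162 and 0.0813 CPM in knockouts. The other 5 overlapped between the groups and were led by H2-Ab1, an MHC class II chain, at 5.47 and 0 CPM against 10.05 and 5.04 CPM. The 5 tested endothelial and mural markers were all fitted higher, 2 of them separated, and their median of 1.04 was the highest of the 30 lists. Egfl7, of endothelium, was at 0.505 and 0 CPM against 0.81 and 2.93 CPM, and Tagln, of smooth muscle, at 0.505 and 0.18 CPM against 1.05 and 2.68 CPM. All 5 had an unadjusted limma p above 0.1, and the summed level of the 15 endothelial and mural markers was 9.08 and 24.8 CPM in the controls and 31.4 and 31.6 CPM in the knockouts.

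**Figure D4:**
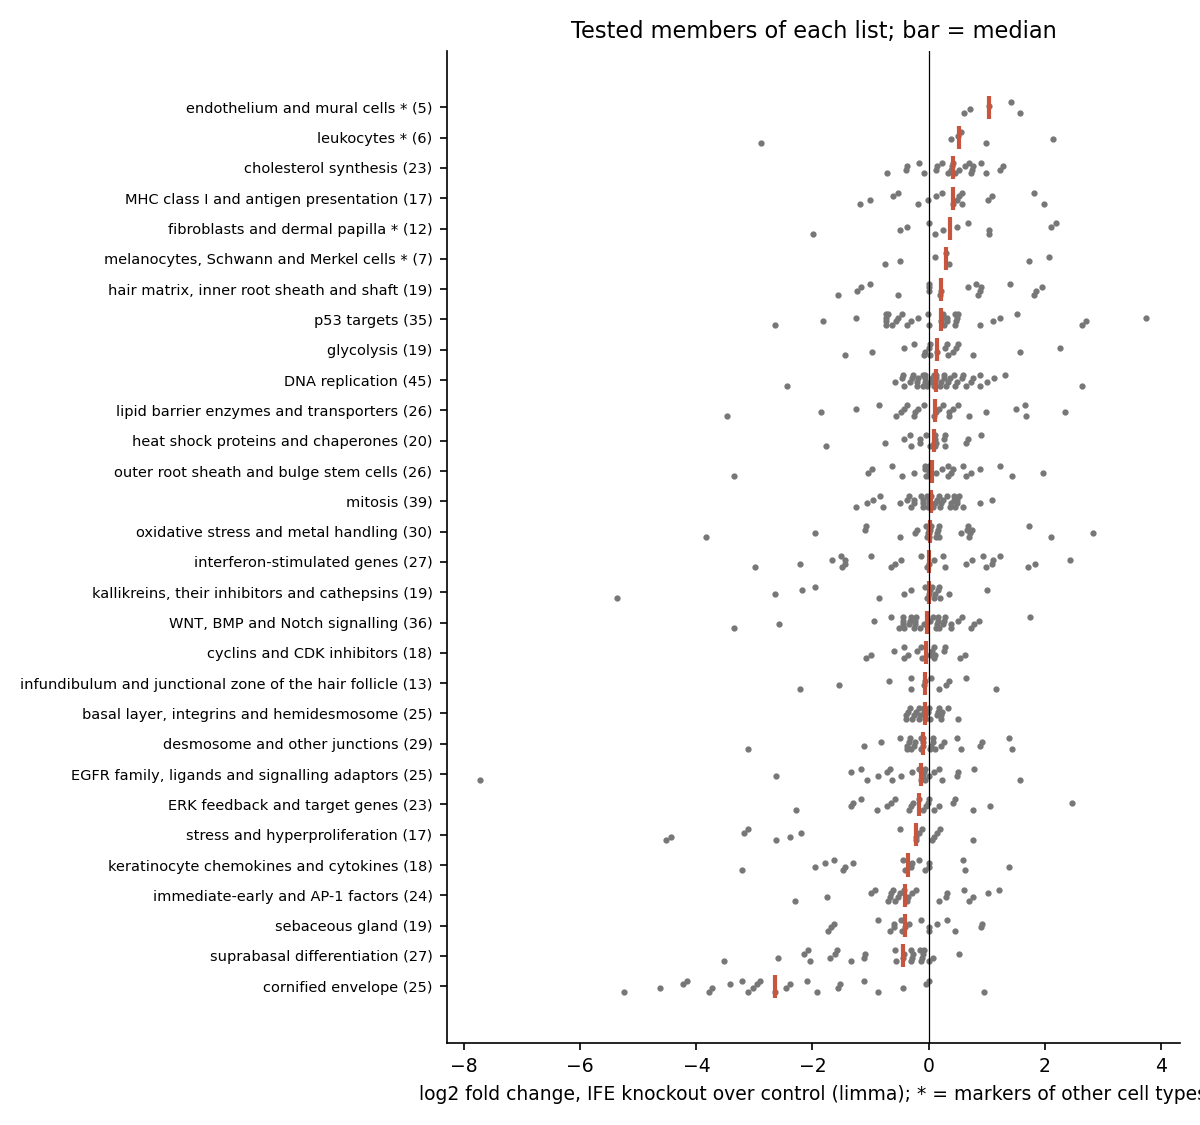
Fitted log2 fold changes of knockout over control for the tested members of the 30 lists, with the number tested in brackets; grey dots are genes, red bars are medians, and asterisks mark lists of other cell types. The cornified envelope lies lowest with a median of -2.65, while basal layer genes sit close around -0.07.

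The same contrast in ORS libraries, fitted together with IFE, called 0 genes, and testing the IFE effect against the ORS effect called 0 (lowest adjusted limma p of 0.999, with 659 genes, 4.71%, at unadjusted p under 0.05). The 30 genes, 15 in each direction, were chosen by their IFE values, so their ORS values stand beside them without a test. Egfr was the 1 gene of the 30 with an unadjusted limma p under 0.05 in ORS (log2 fold change -4.09, SE 0.95). Dkk3 in ORS was at 252 and 241 CPM in the controls against 233 and 271 CPM in knockouts, and Wwp1 at 93.4 and 61.1 CPM against 130.3 and 96.2 CPM. Wnt9b and Gnat2 had 0 reads in all 4 ORS libraries. Mmp11 was at 10.6 and 28.6 CPM in the ORS controls against 30.1 and 32.98 CPM in ORS knockouts.

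Krt78, a keratin of upper epidermal layers singled out after its values were seen, had the smallest p for the difference of effects. In IFE it was at 3.36 and 10.5 CPM in controls with 0 reads in knockouts, and in ORS at 0.035 and 0 CPM in the controls against 11.7 and 6.94 CPM in knockouts. The log2 fold changes were -3.70 (SE 0.92) and 4.20 (SE 0.92), and the unadjusted limma p of their difference was 9.94e-05, which became 0.999 after adjustment.

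**Figure D5:**
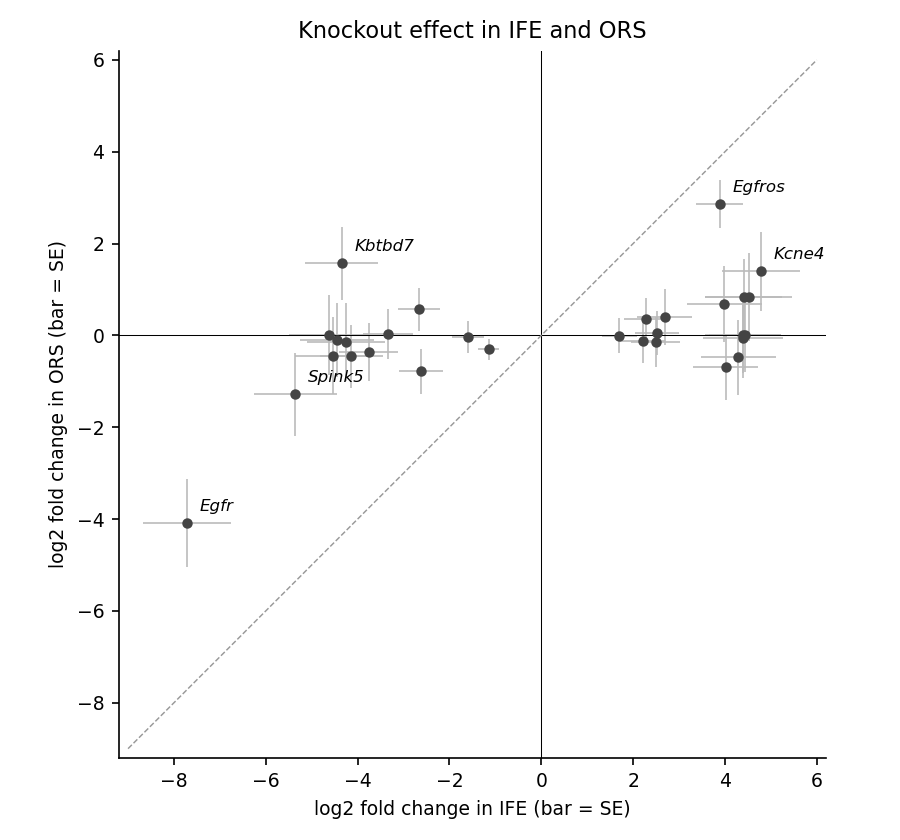
Log2 fold changes of knockout over control in IFE (horizontal) against ORS (vertical) for the 29 genes described and Egfros, with standard errors from limma; the dashed line marks equal changes. Egfr and Egfros differ in both cell groups, and the other 28 genes lie between -1.29 and 1.57 in ORS.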

How the data were processed

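Per the labels' protocols, sorted cells went through PicoPure RNA isolation and a SMARTer Ultra cDNA kit. DESeq2, Trim Galore and the mm10 build are named in the submitters' processing notes. The aligner, the read counter and its use of strand are not given in these sources. The authors deposited 1 table of log2 values of reads per 1e+06 reads of a library total, in which a gene without reads holds the value of 0.9 read. Whole reads were recovered within 0.2 read in 100.0% of values in 11 libraries and 99.9932% in 1 library. No molecular identifiers are named, so reads are not independent molecules.

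Genes needed 10 reads at the median library size in 2 libraries and 15 reads in all. A gene that passed through 1 group alone had to differ between groups, in every list. Repeated symbols (124 rows) could enter the fit and its adjustment, and were left out of the lists and of the genes named by rule. Reads were scaled by TMM (trims 30% and 5%) and tested as log2(CPM + 0.5) with limma 3.58.1 (R 4.3.3, statmod 1.5.0; trended, robust prior), 2-sided. The fit held 8 IFE and ORS libraries as 4 groups, with Benjamini-Hochberg adjustment over all tested genes. With 2 libraries a group, an exact permutation test was not used. The fit was tested on simulated data. Separated means that both knockouts lay above or below both controls. Named were Egfr, 15 higher and 15 lower genes, up to 4 members of each list with the smallest p and the 2 most abundant, and genes passing in a fit. A few genes that this rule takes are not reported here, and counts over lists and over all genes include them. The genes, lists and members were chosen with earlier results of these data known. The alternatives changed scaling, pseudocount (0.1 and 2 CPM), filter, libraries fitted, test, replicate block and single replicates. HFSC libraries entered only the fit of all 12. Promoters are RefSeq sequences.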

Additional observations from a re-analysis of the deposited data

How the results depend on the processing

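The count of called autosomal genes was 0 in the reported fit, 3 with a filter at 50 reads, 1 with the 4 IFE libraries alone and 23 with all 12 libraries. Leaving out 1 IFE library gave 0 to 51 calls, the 51 without the knockout E359, where E358 is the only IFE knockout and is assumed to vary like the other groups. Autosomal genes at unadjusted p under 0.05 made up 7.52%, against 4.61% with the 4 IFE libraries alone, 3.93% with limma-voom and 6.26% to 13.4% with 1 library left out. The difference of IFE and ORS effects called 0 genes, and 0 to 1 with 1 library left out. Egfr had a log2 fold change of -7.72, and passed the threshold at -7.72 with the filter at 50 reads, at -7.67 with the 4 IFE libraries alone and at -7.73 with all 12 libraries. Egfr did not pass with limma-voom, without a filter, or under the changes of scaling, pseudocount and replicate block. With 1 library left out its log2 fold change ran from -8.09 to -7.37. The cause of these shifts was not tested.

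Of 104 other genes followed through the alternatives, 104 kept their sign under all 14 and 20 passed in at least 1. They were taken largely for a small p or separated groups in these same libraries. A kept sign was therefore nearly fixed in advance and lends no support. Not every gene named in the text was among them. Of 30 list medians, 14 kept their sign and 16 did not. No alternative scaling moved the median of all genes by over 0.1 (log2). The replicate block over the numbers shared by IFE and ORS titles gave 0 calls and 7.48% of genes at unadjusted p under 0.05. Deviations of E358 and E359 correlated at 0.0556 between IFE and ORS over 14449 genes, and only these pairs and E341 share a number. Depth limits low genes: 1 read is worth 0.0810 to 0.0902 CPM.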

Other observations

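Genes at 5 CPM or more in 1 library and at 0 reads in its replicate were more frequent in IFE than in ORS. They made up 2.12% of such genes in IFE controls and 3.20% in IFE knockouts, against 0.423% in ORS controls and 1.29% in ORS knockouts. IFE libraries held 11.4 to 13.2 M reads in genes and ORS libraries 24.7 to 27.7 M. These made up 27.8% to 29.6% of the library totals in IFE and 50.6% to 54.6% in ORS. Replicates differed beyond counting error, with a chi-square per degree of freedom of 58.4 between the IFE controls and 84.3 between the IFE knockouts.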
